A study of Mus musculus with 2 samples.

Results

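The cells described are a small class of lung macrophages that carry transcripts of Folr2, Cd163, Stab1, Cd209g or Cxcl13, called Folr2 Cd163 Stab1 macrophages here. A cell was a member if it had at least 300 genes, under 10% mitochondrial UMIs (unique molecular identifiers, each 1 captured transcript), at least 5 UMIs of the complement genes C1qa, C1qb and C1qc together, and at least 1 UMI of at least 2 of those 5 genes. Cells with more than 1 UMI of the alveolar macrophage genes Krt79, Plet1 and Fabp1 together, with any Cd3d, Cd3e or Cd3g UMI, or with any Cd79a UMI were left out. This gave 136 members among 16932 kept cells, 69 from the tamoxifen library and 67 from the oil library. Both libraries held live CD45-positive cells sorted from lungs of adult Gli1creERT/Hhipflo/flox mice, which carry a tamoxifen-inducible Cre under Gli1 and floxed Hhip, the gene of a membrane inhibitor of Hedgehog ligands. One group was injected with tamoxifen and the other, with the same genotype, with oil. An antibody injected into the blood just before death had labelled CD45 on cells inside vessels, and labelled cells were excluded. Gli1 is known as a gene of mesenchymal cells rather than of macrophages. The number, age in weeks, sex and strain background of the animals are not given in the sources used here.

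Macrophages of the lung interstitium live outside the airspaces, around vessels, airways and nerves, and differ in this from the alveolar macrophages on the airspace surface. In mice, interstitial macrophages that are rich in the hyaluronan receptor Lyve1 and the folate receptor Folr2 and poor in MHC class II lie along blood vessels, while those rich in MHC class II lie closer to nerves and airways. Cd163, Stab1 and Mrc1 are scavenger receptors of such resident macrophages, Cd209f and Cd209g are C-type lectins, and Cxcl13 and Ccl8 are chemokines that attract B cells and other leukocytes. Position in the tissue was not measured here.

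The tamoxifen library held 83730550 UMIs in 12980 barcodes and the oil library 57704412 UMIs in 10342. The mitochondrial limit was reached by 20.7% of tamoxifen barcodes and 31.9% of oil barcodes, and 10138 and 6794 cells were kept. The libraries shared 41 barcodes, and 0 member barcodes of either library were found in the other. Members had a median of 8717 UMIs per cell in tamoxifen and 7871 in oil, and 720118 and 618842 UMIs in all. Hhip was at 0 UMIs in the members of both libraries, which allows up to 4.17 and 4.85 CPM (counts per 1000000 UMIs), so the members do not check the deletion. Each group is a single library, so differences between groups have no replicate check and were not tested. Ratios are log2 values with 95% intervals in parentheses, and these intervals cover counting error only. CPM counts molecules and is not scaled by gene length, so levels are compared between cells and not between genes.

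Among C1q macrophages, defined by the same C1q minimum and exclusions, members were 69 of 890 cells in tamoxifen (7.75%, exact Clopper-Pearson interval 6.08 to 9.71) and 67 of 939 in oil (7.14%, 5.57 to 8.97). The log2 ratio of these shares was 0.12, with a counting interval from -0.35 to 0.59 that spans 0. As a share of all kept cells, members were 0.681% in tamoxifen and 0.986% in oil, a ratio of -0.54 (-1.02 to -0.05). Tamoxifen cells included 2619 alveolar macrophages against 505 in oil, and with that class out of the denominator the shares were 0.918% and 1.07% (-0.22, -0.70 to 0.27). C1q macrophages with exactly 1 of the 5 genes were 24.3% in tamoxifen and 30.8% in oil (-0.34, -0.56 to -0.13). Those with none of them, which serve below as the comparator, numbered 605 and 583, with median depths of 9288 and 8246 UMIs.

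Cells of both sexes were present in each library, as read from Xist and 4 Y-linked genes, and members were more frequent among male than among female C1q macrophages in both. In tamoxifen, 12.9% of male C1q macrophages (8.65 to 18.2) and 5.77% of female ones (3.93 to 8.13) were members. In oil the values were 10.9% (7.30 to 15.4) for male and 5.43% (3.58 to 7.85) for female cells. Male cells made up 47.4% and 50.9% of members given a sex, against 21.4% and 27.6% of all kept cells given a sex. Since the animals behind each sex are not stated, sex and animal cannot be told apart.

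The values of the 5 genes themselves chose the cells, so they are given as a description. Stab1 was the commonest, with at least 1 UMI in 56 of 69 tamoxifen and 54 of 67 oil members, followed by Cd163 in 45 and 45, Folr2 in 42 and 38, Cxcl13 in 29 and 34, and Cd209g in 10 and 4. Exactly 2 of the 5 genes were found in 39 tamoxifen and 36 oil members, and all 5 in 4 and 1. Cd163 with Stab1 was the most frequent combination, in 13 cells of each library. Folr2 with both of these was found in 8 and 11, and Stab1 with Cxcl13 in 9 and 7. Cells just inside the C1q minimum, with 5 to 9 C1q UMIs, numbered 2 and 2, while 67 and 64 members had 20 or more. In the comparator 495 of 605 tamoxifen and 483 of 583 oil cells had 20 or more. Its median C1q UMIs per cell were 63 in tamoxifen and 75 in oil, against 127 and 115 in members. Just outside the C1q minimum, 0 cells of either library met all other criteria with 1 to 4 C1q UMIs, and 1 and 3 did so with 0. The exclusions removed more cells that reached the C1q minimum and had at least 2 of the 5 genes. Of these, 45 tamoxifen and 32 oil cells had a Cd3d, Cd3e or Cd3g UMI. The alveolar macrophage genes excluded 12 and 3, and Cd79a 2 and 0. Summed over members, Cxcl13 was at 1680 CPM in tamoxifen and 1639 in oil, Cd163 at 299 and 331, Stab1 at 226 and 393, Folr2 at 206 and 238, and Cd209g at 133 and 54.9. Cxcl13 reached 149 UMIs per 10000 in 1 tamoxifen cell and 269 in 1 oil cell, with medians over cells of 0 and 0.949.

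After each cell was thinned to 3000 UMIs, Stab1 was found in 50.0% of tamoxifen and 61.9% of oil members, Cd163 in 34.8% and 44.4%, Folr2 in 36.4% and 34.9%, Cxcl13 in 37.9% and 42.9%, and Cd209g in 10.6% and 4.76%. In T cells at the same depth, which should lack these genes and so show the level free RNA can give, Stab1 was found in 0.855% and 1.15% of cells and Folr2 in 0.0276% and 0%. Outside the C1q macrophages, endothelial cells had the highest Stab1 share of the other classes examined, 16.1% in tamoxifen and 13.8% in oil, and Folr2 and Cd163 were found in 0 of the 124 and 160 endothelial cells.

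Folr2 (GRCm38 chromosome 7, 101839988 to 101857194, minus strand) and the neighbouring lectin genes Cd209f (chromosome 8, 4102787 to 4105835, minus strand) and Cd209g (chromosome 8, 4134098 to 4137707, plus strand) hold the same short motif in 1 promoter window each. Folr2 has a second window in the table, at chr7:101857141-101857440, without it. The windows below run from 250 bases before to 50 bases after a RefSeq transcript start (GRCm38.p6), 5′ to 3′ on the gene's strand. They are shown because the capitals mark the only AP-1 site letters found among the promoter windows searched here (TGACTCA, or TGAGTCA where the match is on the other strand). The windows are chr7:101845282-101845581 for Folr2, chr8:4105715-4106014 for Cd209f and chr8:4134486-4134785 for Cd209g.
Folr2: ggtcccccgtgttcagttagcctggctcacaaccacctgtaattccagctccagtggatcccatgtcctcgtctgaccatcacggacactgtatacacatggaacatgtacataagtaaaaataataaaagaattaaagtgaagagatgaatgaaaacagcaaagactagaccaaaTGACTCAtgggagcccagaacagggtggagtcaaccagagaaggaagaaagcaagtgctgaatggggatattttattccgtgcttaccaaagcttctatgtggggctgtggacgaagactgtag
Cd209f: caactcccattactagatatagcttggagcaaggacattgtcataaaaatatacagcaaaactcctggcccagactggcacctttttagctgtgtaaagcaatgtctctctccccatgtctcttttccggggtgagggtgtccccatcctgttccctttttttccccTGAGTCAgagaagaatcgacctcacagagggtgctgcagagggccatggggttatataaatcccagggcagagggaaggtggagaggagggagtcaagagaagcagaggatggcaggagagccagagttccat
Cd209g: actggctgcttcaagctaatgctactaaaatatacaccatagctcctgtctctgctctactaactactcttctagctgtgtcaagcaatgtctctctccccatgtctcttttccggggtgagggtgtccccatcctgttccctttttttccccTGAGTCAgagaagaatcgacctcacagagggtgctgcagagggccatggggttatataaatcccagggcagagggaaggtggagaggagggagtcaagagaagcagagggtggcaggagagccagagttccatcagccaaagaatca
The capitals start 74 bases before the transcript start of the Folr2 window shown, 83 before that of Cd209f and 97 before that of Cd209g. AP-1 is the dimer of Fos and Jun family factors. Of 23 windows of 18 genes (the 5 rule genes, the 15 genes named as higher in members below, Cd209f, Ccl12 and Mrc1, of which Lyve1, Maf, Ccl7, Tcim and Wwp1 had no window in the table), 3 held this motif, against 5.20% of all 32851 windows, both strands searched. The Cd209f and Cd209g windows share an unbroken stretch of 180 bases that contains the motif and are identical at 238 of 286 aligned positions (83.2%), so they are not separate instances. Their transcripts are also alike, with a longest shared stretch of 416 bases, so reads could be split between Cd209f and Cd209g and their separate counts are uncertain.

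Both classes were chosen by values of the same cells, so the ratios describe which genes went with the rule genes. Compared with C1q macrophages without the 5 genes, members carried a broad resident-macrophage expression profile. Of 9154 genes with at least 20 UMIs over both classes in each library, 233 were at least 2-fold higher in members in both libraries (2.55%), not counting the 5 rule genes, and 146 at least 2-fold lower (1.59%). A list of 34 genes of perivascular resident macrophages had 31 measured members, of which 25 were higher in both libraries and 0 lower. Its median log2 ratio was 2.25 in tamoxifen and 2.11 in oil, against 0.01 and 0.04 over all genes measured. The list was chosen with earlier results of these cells known, so this count is no independent support for the label.

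Lyve1, the hyaluronan receptor (chromosome 7, 110850607 to 110863239, minus strand), had 156 UMIs in tamoxifen members and 213 in oil members, at 217 and 344 CPM. In the comparator it was at 3.86 CPM in tamoxifen and 0.926 in oil, giving ratios of 5.81 (5.17 to 6.51) and 8.54 (7.29 to 10.2). Its UMIs lay in 20 of 69 and 24 of 67 members, so most members had none. Lyve1 and Stab1 are also expressed by lymphatic endothelium. Of the 10 lymphatic markers Mmrn1, Flt4, Reln and Nts were at 0 UMIs in members of both libraries, while Prox1 had 5 UMIs in tamoxifen and 2 in oil, Pdpn 2 and 0, and Ccl21a 1 and 0. Fgl2, the remaining one, had 99 and 173 UMIs in members and 699 and 613 in the comparator.

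F13a1, the A subunit of coagulation factor XIII, was at 293 CPM in tamoxifen members and 449 in oil members, against 6.05 and 6.85 in the comparator (5.60 and 6.04). Ccl8, the one marker of the label that the rule did not use, was at 258 and 299 CPM in members, against 6.72 and 2.59 in the comparator (5.26 and 6.85), and was found in 21 tamoxifen and 24 oil members. Cbr2, a carbonyl reductase, was at 104 and 196 CPM, against 2.35 and 4.81 (5.47 and 5.34). Summed over members, these 3 genes were thus high in both libraries and close to absent from the comparator. F13a1 was found in 31 tamoxifen and 42 oil members and Cbr2 in 28 and 32, so many members had none. Pla2g2d, a secreted phospholipase, was at 125 and 255 CPM in members, against 5.21 and 1.85 (4.59 and 7.11), with 56.3% of the oil UMIs in 1 cell. Gas6, the ligand of the receptors Axl and Mertk, was at 106 and 239 CPM, against 7.89 and 11.5 (3.74 and 4.38). Cd209f had 0 UMIs in the comparator of both libraries, so that its 116 and 26 UMIs in members were higher by at least 8.32 and 6.24 against a floor of 3 UMIs over the class.

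Other genes were higher in members but present in the comparator as well. Pf4, a chemokine known from platelets, was at 1827 CPM in tamoxifen members and 2209 in oil members, against 177 and 290 (3.37 and 2.93). The platelet genes Itga2b, Gp9, Gp1bb, Gp5 and Treml1 were at 0 UMIs in members of both libraries. Maf, a transcription factor of resident macrophages, was at 436 and 646 CPM, against 56.1 and 67.4 (2.96 and 3.26). Selenop, which encodes the selenium carrier protein, was at 1811 and 2304 CPM, against 383 and 460 (2.24 and 2.33). The mannose receptor gene Mrc1 was at 1044 and 1291 CPM, against 297 and 340 (1.82 and 1.92). Igfbp4, an IGF-binding protein, had ratios of 3.02 and 3.42, the chemokine gene Ccl7 2.89 and 2.12, Tcim 2.88 and 3.10, Smagp 2.83 and 2.39, the ubiquitin ligase gene Wwp1 2.48 and 2.75, and the Fc receptor-like gene Fcrls 2.45 and 2.44. Cells that carry any one of these genes were a varying share of the members. Selenop was found in 66 tamoxifen and 66 oil members and Pf4 in 60 and 58, while Tcim was found in only 16 and 21.

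**Figure D1:**
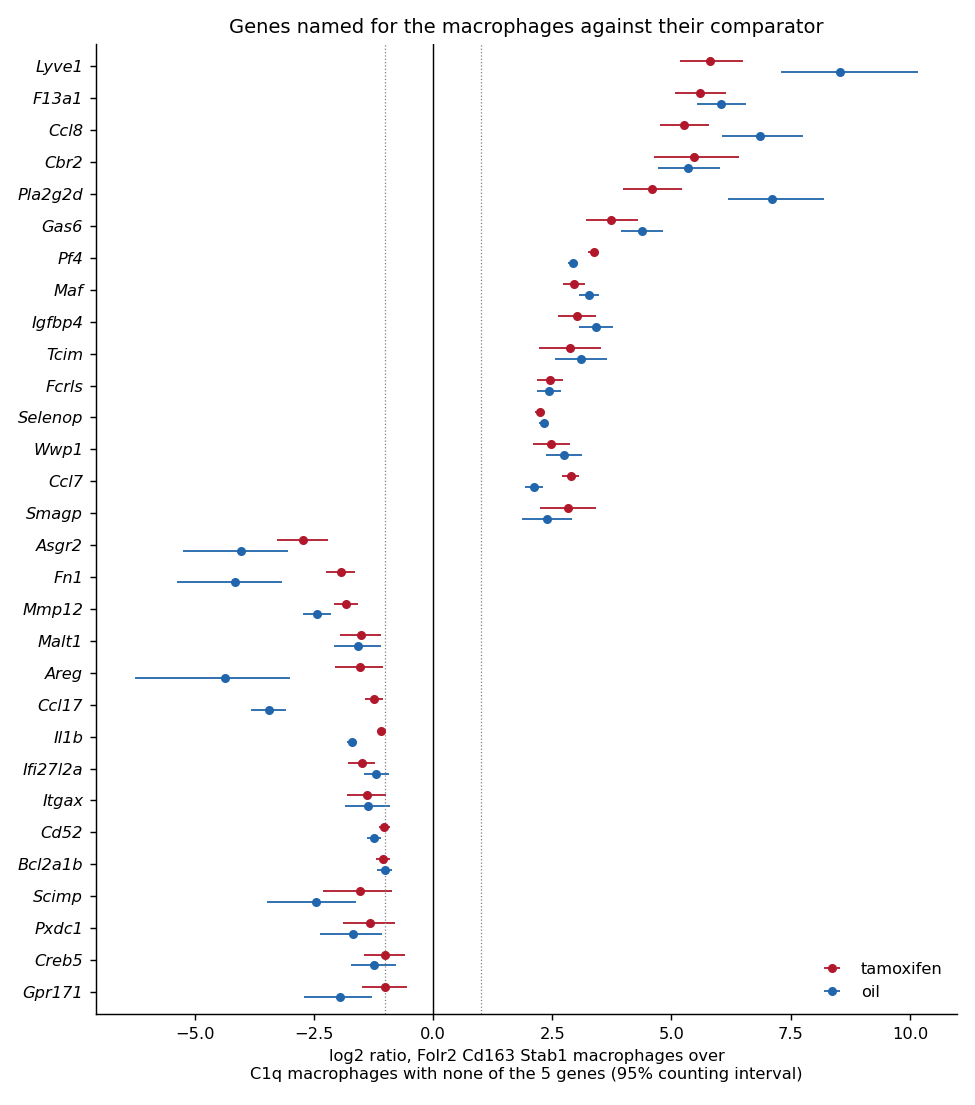
The log2 ratio of members over C1q macrophages with none of the 5 genes (x axis) for the genes named in each direction (y axis), tamoxifen in red above oil in blue, with 95% counting intervals. Lyve1 stands at 5.81 in tamoxifen and 8.54 in oil, and Asgr2 at -2.72 and -4.02.

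The promoter windows of F13a1, Pf4 and Cbr2 are shown because they hold the letters of sites of PU.1 (GAGGAAGT) and Maf (half-site TGCTGAC), searched on both strands, factors known in macrophage gene expression. The capitals mark the PU.1 site letters in F13a1 and Pf4 and the Maf half-site letters in Cbr2. In RefSeq coordinates (GRCm38.p6) the windows are chr13:37049164-37049463, minus strand, for F13a1, chr5:90772185-90772484, plus strand, for Pf4 and chr11:120731972-120732271, minus strand, for Cbr2.
F13a1: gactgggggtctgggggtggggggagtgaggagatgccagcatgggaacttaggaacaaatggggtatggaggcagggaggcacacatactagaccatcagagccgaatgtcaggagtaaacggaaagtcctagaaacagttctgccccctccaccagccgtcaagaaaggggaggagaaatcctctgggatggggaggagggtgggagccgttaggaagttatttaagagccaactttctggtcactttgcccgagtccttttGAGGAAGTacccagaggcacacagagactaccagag
Pf4: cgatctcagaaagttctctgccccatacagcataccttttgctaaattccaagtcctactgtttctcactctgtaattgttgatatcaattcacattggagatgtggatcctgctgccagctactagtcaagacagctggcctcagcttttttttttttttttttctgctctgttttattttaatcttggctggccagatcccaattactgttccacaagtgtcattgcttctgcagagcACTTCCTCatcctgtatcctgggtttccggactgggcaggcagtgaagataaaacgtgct
Cbr2: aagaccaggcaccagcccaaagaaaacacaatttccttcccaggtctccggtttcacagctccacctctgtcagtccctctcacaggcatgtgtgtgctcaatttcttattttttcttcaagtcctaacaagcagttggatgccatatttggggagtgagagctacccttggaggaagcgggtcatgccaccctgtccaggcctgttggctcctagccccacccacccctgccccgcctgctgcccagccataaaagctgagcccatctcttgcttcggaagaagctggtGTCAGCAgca
The site letters start 15 bases after the transcript start of the F13a1 window shown, 10 bases before that of Pf4 and 41 bases after that of Cbr2. F13a1 has a second window, at chr13:37050195-37050494, without PU.1 letters. That second window, not the one shown, holds the annotated 5′ end of the gene (37050244). PU.1 letters were in 4 of the same 23 windows (17.4%), those of F13a1, Pf4 and 2 of Selenop, against 3.20% of all windows. The 2 Selenop windows, chr15:3270517-3270816 and chr15:3270561-3270860, overlap, so they may not be separate instances. By gene, PU.1 letters were in 3 of 18. Maf half-site letters were in 1 of the 23 windows (4.35%), against 4.67% of all. Letters of a STAT site (TTCNNNGAA) and of an NF-kB site were in 0 of the 23 windows, against 8.30% and 1.47% of all windows. These matches describe the letters only.

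The genes named as lower in members encode receptors, matrix proteins, cytokines and signalling proteins. Asgr2, a subunit of the asialoglycoprotein receptor, was at 43.0 CPM in tamoxifen members and 12.9 in oil members, against 284 and 210 in the comparator (-2.72 and -4.02), with 61.3% of the tamoxifen UMIs in 1 cell. Fn1, which encodes fibronectin, was at 125 and 12.9 CPM, against 476 and 230 (-1.93 and -4.16). Of its tamoxifen UMIs in members, 71.1% lay in 1 cell. Fn1 was found in 8 of 69 tamoxifen and 4 of 67 oil members, and in 119 of 605 and 38 of 583 comparator cells. The oil shares were thus similar, and 271 of the 1244 oil comparator UMIs lay in 1 cell. Mmp12, the macrophage elastase, was at 183 and 154 CPM, against 647 and 825 (-1.82 and -2.43), with 71.6% of its oil UMIs in members in 1 cell. The interleukin-1 beta gene Il1b was at 1483 and 1091 CPM, against 3146 and 3534 (-1.09 and -1.70). Ccl17, a chemokine of dendritic cells, was at 349 and 105 CPM, against 821 and 1134 (-1.24 and -3.43). In female cells alone the tamoxifen ratio of Ccl17 was 0.069. Areg, which encodes an EGF receptor ligand, had ratios of -1.54 and -4.37, the signalling gene Malt1 -1.51 and -1.57, the adaptor gene Scimp -1.54 and -2.46, Ifi27l2a -1.49 and -1.19, Itgax (CD11c) -1.39 and -1.36, Pxdc1 -1.32 and -1.68, Cd52 -1.02 and -1.24, Creb5 -1.01 and -1.23, and Gpr171 -1.01 and -1.95. Bcl2a1b (-1.05 and -1.01) belongs to a family of near-identical copies, so its counts are uncertain.

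By pathway, chemokines had 5 of 20 measured genes at least 2-fold higher in members in both libraries and 1 lower (Ccl17), with medians of 0.49 in tamoxifen and -0.07 in oil. The 5 were Ccl7, Ccl8, Ccl12, Ccl24 and Pf4, and Ccl12, which attracts monocytes, was at 457 and 344 CPM in members, against 55.3 and 83.1. Scavenger and endocytic receptors had 8 of 19 higher and 0 lower (medians 0.46 and 0.80), among them the fatty acid receptor Cd36 (2.43 and 1.69), the lectin Clec10a (1.85 and 2.27) and the phosphatidylserine receptor Timd4 (1.95 and 1.58). Of the complement genes, 4 of 16 were higher and 1 lower (0.65 and 0.68). Among the higher ones were the complement regulator Cd55, C4b and the C5a receptor C5ar1 (1.97 and 1.75), and Itgax was the lower one. C1qa, C1qb and C1qc, used to define both classes, were at 0.59 and 0.67, 0.33 and 0.50, and 0.75 and 0.69.

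Iron and haem genes had 3 of 16 higher and 0 lower (0.43 and 0.71), namely the ferroxidase Cp (3.47 and 3.31), the haem oxygenase Hmox1 (1.53 and 1.35) and transferrin, Trf (1.03 and 1.04). Lipid handling genes had 5 of 18 higher and 1 lower (0.09 and 0.39). Of these, Apoe was at 8529 CPM in tamoxifen members and 11181 in oil members, against 2352 and 1958 (1.86 and 2.51), and the cholesterol exporter Abca1 had ratios of 1.79 and 2.61. Eicosanoid enzymes had 5 of 19 higher and 1 lower (0.44 and 0.62), including the leukotriene C4 synthase Ltc4s (2.51 and 2.09) and the prostaglandin D synthase Hpgds (1.25 and 1.60). Growth factors had 4 of 20 higher, Gas6, Bmp2, Hbegf and Il10, and 1 lower, Areg (0.39 and 0.60). Il10, an anti-inflammatory cytokine, was found in few cells, 7 in tamoxifen and 9 in oil. Myeloid transcription factors had 5 of 33 higher and 1 lower (0.12 and 0.49), with Cebpd at 1.30 and 1.71 beside Maf. Macrophage core genes had 3 of 20 higher, among them Adgre1 and Apoe, and 0 lower (0.45 and 0.59).

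The remaining lists varied in how many genes were past 2-fold in both libraries. Over all genes measured, 2.55% were higher and 1.59% lower. MHC class II genes had 0 of 10 either way, with medians of -0.44 in tamoxifen and -0.71 in oil. The list of MHC class II-high interstitial macrophages had 0 of 24 higher and 2 lower (-0.48 and -0.71), the interferon-gamma response list 0 of 18 higher and 2 lower (-0.56 and -0.51), and the type I interferon list 0 of 12 higher and 2 lower (-1.58 and 0.04). Inflammatory cytokines had 3 of 19 higher and 1 lower (-0.09 and -0.45), alternative activation 4 of 13 higher and 2 lower (-0.29 and -0.84), lysosomal genes 0 of 27 higher and 1 lower (0.18 and 0.46), and immediate early and stress genes 0 of 24 either way (0.19 and 0.05). Cycling genes had 0 of 17 either way in both libraries (1.33 and -0.99). Among Hedgehog pathway genes 2 were measured, with 1, the receptor Smo, higher in both (1.28 and 1.07) on 5 and 7 UMIs in members.

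A minority of these genes followed the number of rule genes found in a cell step by step. Of the 233 higher genes, 82 (35.2%) were higher at each step over 0, 1, 2 and 3 or more rule genes in both libraries, against 2.18% of all 9154 genes measured, and of the 146 lower ones 32 (21.9%) were lower at each step, against 1.26% of all. The choice of these genes already sets the members above or below the cells with none. Pf4 was at 177, 605, 1128 and 2666 CPM over these steps in tamoxifen and at 290, 551, 1141 and 3840 in oil. F13a1 was at 6.05, 22.3, 66.2 and 565 CPM in tamoxifen and 6.85, 18.1, 200 and 829 in oil. Cells with 1 rule gene thus lay between the cells with none and those with 2 for both genes. Il1b ran the other way, at 3146, 2560, 1954 and 919 CPM in tamoxifen and 3534, 2998, 1529 and 421 in oil. Cd74, the MHC class II invariant chain, was at 28714, 26230, 23476 and 15798 CPM in tamoxifen and 38990, 34488, 27219 and 17192 in oil. H2-Eb1, a class II beta chain, was lower at each step in oil, at 5008, 4469, 3721 and 2410 CPM, while in tamoxifen it was at 6189, 5805, 5644 and 5948 CPM. Cells with 2 rule genes had median depths of 8157 UMIs in tamoxifen and 8304 in oil, against 9288 and 8246 in cells with none.

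**Figure D2:**
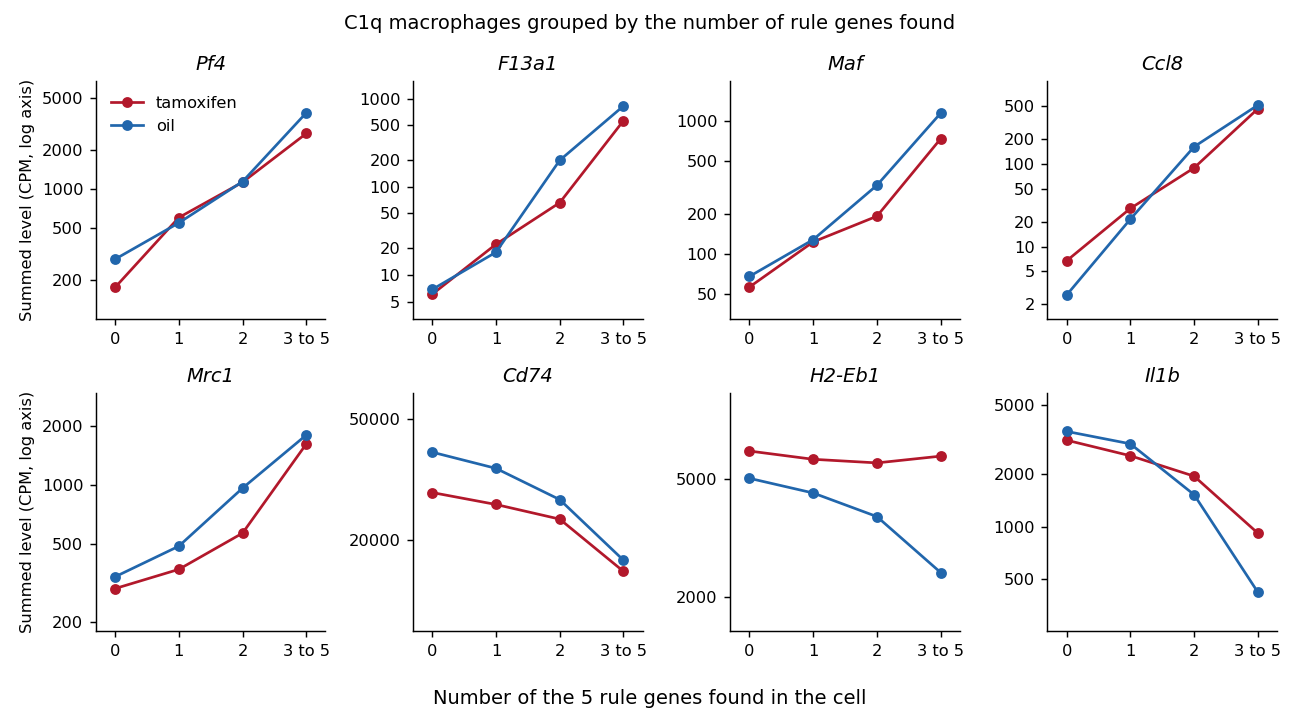
Summed level (CPM, log axis) of 8 genes in C1q macrophages with 0, 1, 2 or 3 to 5 of the rule genes, for tamoxifen (red) and oil (blue). Pf4, F13a1, Maf, Ccl8 and Mrc1 are higher and Cd74 and Il1b lower at each step in both libraries, whereas H2-Eb1 stays between 5644 and 6189 CPM in tamoxifen and is lower at each step in oil.

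Single cells differed widely within the class. Mrc1 was found in 63 tamoxifen and 63 oil members, with medians of 8.28 and 10.8 UMIs per 10000 and highest values of 66.5 and 74.5. Pf4 had medians of 13.7 and 19.8 and reached 123 and 116. Lyve1 and Ccl8 had medians of 0 in both libraries and reached 32.6 and 37.0 for Lyve1 and 33.3 and 26.8 for Ccl8. The class II gene H2-Aa had medians of 90.0 and 107 in members, against 121 and 148 in the comparator, and the ranges of the classes overlapped.

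**Figure D3:**
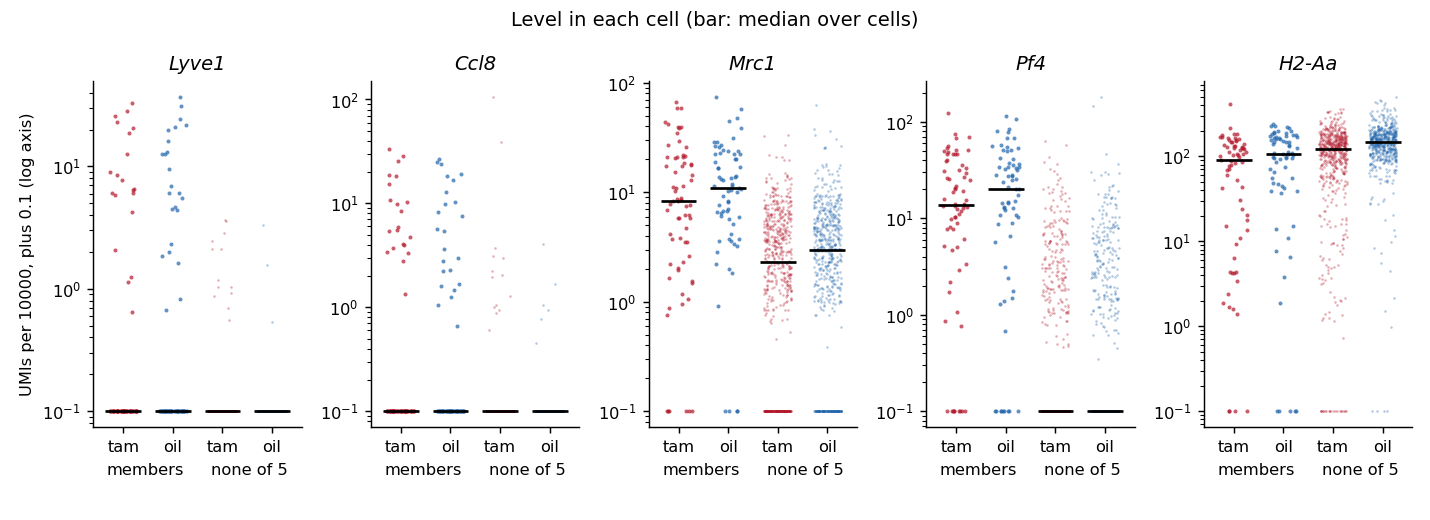
Level in each cell (UMIs per 10000 plus 0.1, log axis) of 5 genes in members and in C1q macrophages with none of the 5 genes, tamoxifen (red) left of oil (blue) in each pair. Black bars are medians over cells, and for Lyve1 and Ccl8 they lie at 0 UMIs in members of both libraries.

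Split by Lyve1, there were 20 members with a UMI and 49 without in tamoxifen, and 24 and 43 in oil, with median depths of 8898 and 8253 UMIs in tamoxifen and 8905 and 7502 in oil. Lyve1 carriers had more F13a1, at 1030 CPM in tamoxifen carriers and 48.1 in the other tamoxifen members (4.42, 3.82 to 5.07), and at 961 and 140 in oil (2.78, 2.35 to 3.24). Folr2 was higher in carriers by 2.14 in tamoxifen and 1.82 in oil, Mrc1 by 1.92 and 1.38, and Ccl8 by 1.87 and 3.04. The eotaxin gene Ccl24 was higher by 7.61 in tamoxifen (5.08 to 12.9), on 65 UMIs in carriers and 1 in the others. In oil Ccl24 was higher by 2.91, on 41 and 9 UMIs. The thrombomodulin gene Thbd was higher in carriers by 5.89 in tamoxifen (138 UMIs in carriers and 7 in the others) and 3.34 in oil (92 and 15). MHC class II was lower in carriers in both libraries, with H2-Aa at -0.97 and -0.83, H2-Ab1 at -0.94 and -0.94, and H2-Eb1 at -0.83 and -1.09. Cd74 was at 11416 CPM in tamoxifen carriers and 22833 in the other tamoxifen members, and at 14073 and 28799 in oil. Cxcl13 was also lower in carriers, at 518 CPM in tamoxifen carriers and 2067 in the other tamoxifen members, and at 1373 and 1799 in oil. In oil this rested on 1 cell, and without the highest cell the ratio was 0.42. Cxcl13 was found in 4 of 20 tamoxifen carriers and 25 of the 49 others, and in 12 of 24 oil carriers and 22 of the 43 others. Folr2 and Cxcl13 are rule genes, and any 2 of the 5 admitted a cell. The choice of members thus bears on their values in this split, which are a description.

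Lyve1 differed between the sexes as well. At 3000 UMIs it was found in 38.5% of male and 10.3% of female members in tamoxifen, and in 33.3% of male and 11.5% of female members in oil. These are 10, 3, 8 and 3 cells. Members were also split by Cxcl13, itself a rule gene that helped choose them, with 29 carriers in tamoxifen and 34 in oil. Mmp12 (-4.43 and -2.99), Ccl24 (-2.24 and -1.57), Ccl17 (-1.53 and -2.06) and Thbd (-1.15 and -1.22) were lower in carriers and Pla2g2d (1.17 and 1.75) higher in both libraries. Most of these moved without the member with the most UMIs of the gene in each library. Pla2g2d was then at 0.63 in tamoxifen and -0.015 in oil, Mmp12 at -3.87 and -0.66, Ccl24 at -1.78 and -0.84, Ccl17 at -0.45 and -1.15, and Thbd at -0.85 and -0.65.

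**Figure D4:**
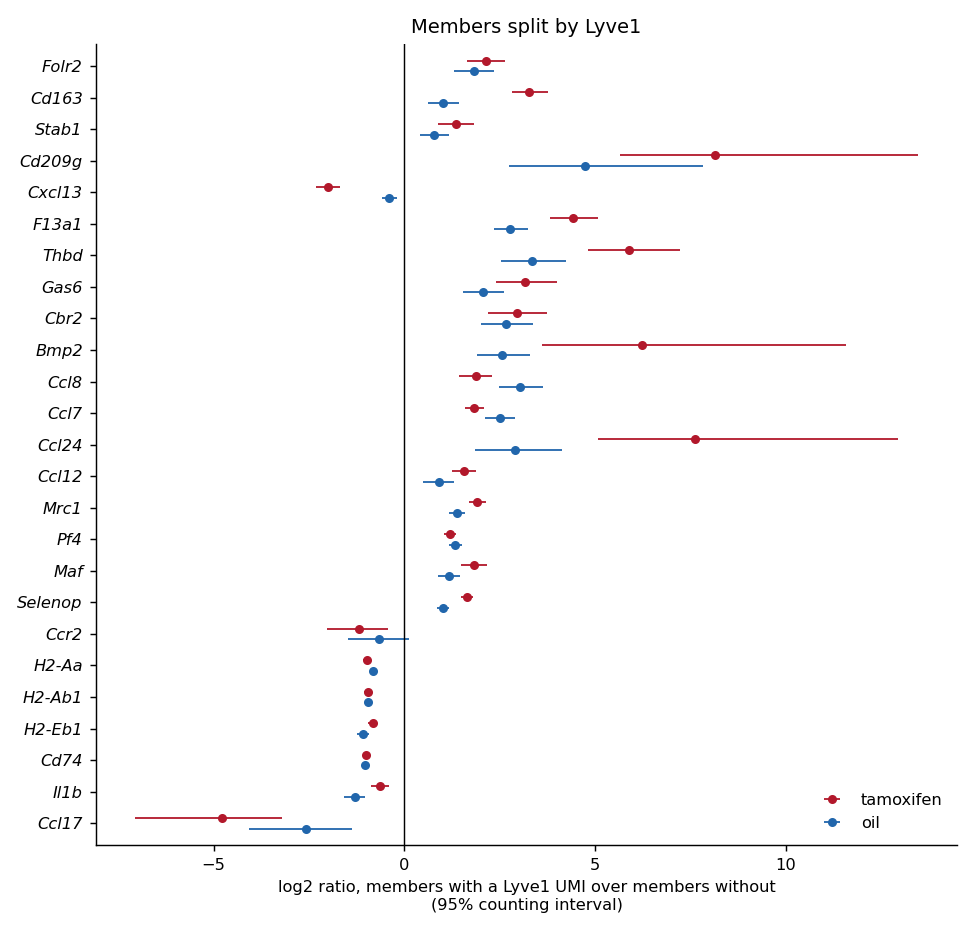
The log2 ratio of members with a Lyve1 UMI over members without one (x axis) for 25 genes (y axis), tamoxifen in red above oil in blue, with 95% counting intervals. F13a1 stands at 4.42 in tamoxifen and 2.78 in oil, and H2-Aa at -0.97 and -0.83.

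Between the libraries, several of the larger ratios in members rested on few cells. Of 5921 genes with at least 20 UMIs over both libraries, 290 were at least 2-fold higher in tamoxifen members than in oil members (4.9%) and 222 at least 2-fold lower (3.75%). Without the highest cell of each library for each gene these counts were 254 and 197. The perivascular list had 3 of 31 measured genes higher and 3 lower, with a median of -0.31, against 0.00 over all genes. The 3 higher ones were Cd209f, Cd209d and C4b, and the 3 lower ones Gas6, Lyz1 and Cd209b. Lyve1 was at -0.67 (-0.98 to -0.36), F13a1 at -0.62 (-0.88 to -0.35), Maf at -0.57 (-0.79 to -0.35), Mrc1 at -0.31 (-0.45 to -0.16) and Ccl8 at -0.21 (-0.51 to 0.09), all below 2-fold.

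Annexin and S100 genes were among the genes named as higher in tamoxifen members. Anxa2, a membrane-binding annexin (chromosome 9, 69453620 to 69491795), had 230 UMIs in tamoxifen members and 65 in oil members, at 319 and 105 CPM (1.60, 1.20 to 2.02), and was found in 42 of 69 and 32 of 67 cells. Its binding partner S100a10 was at 861 and 389 CPM (1.14, 0.93 to 1.37) and the related calcium-binding gene S100a6 at 1096 and 517 CPM (1.08, 0.89 to 1.28). In the comparator the same ratios were 0.36, 0.31 and 0.43. The ratios were larger in female than in male members for S100a6 (1.46 and -0.064) and S100a10 (1.90 and 0.51), and closer for Anxa2 (1.67 and 1.29). Plp2 (84.7 and 19.4 CPM, 2.13) and Avpi1 (79.2 and 16.2 CPM, 2.29) were also higher, in both sexes. So were the lectin Klrb1b (72.2 and 16.2 CPM, 2.16) and the cytokine Mif (185 and 64.6 CPM, 1.51). For Plp2 in male members the ratio was 1.23 on 23 and 7 UMIs, with an interval from -0.04 to 2.69 that spans 0. In the comparator Plp2 was at -0.06, Avpi1 at 0.55, Klrb1b at -0.16 and Mif at 0.79. With each cell thinned to 3000 UMIs before the rule, which left 43 tamoxifen and 38 oil members, the Mif ratio was -0.35.

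Cd209f had 116 UMIs in 10 tamoxifen members and 26 UMIs in 4 oil members (1.94, 1.32 to 2.61), and without the highest cell of each library the ratio was 3.15. Cd209f or Cd209g was found in 11 tamoxifen and 5 oil members, of which 9 and 4 also carried Lyve1. In tamoxifen 9 of the 11 cells were male and 2 female. In female members the Cd209f ratio was -0.57 on 5 and 7 UMIs, with an interval from -2.57 to 1.30. The replication histone genes Hist1h1b (151 UMIs in tamoxifen and 11 in oil, 3.56), Hist1h2ae (95 and 8, 3.35), Hist1h2ap (41 and 2, 4.14) and Hist1h3c (48 and 1, 5.37) rested on few cells. All Hist1h1b UMIs of tamoxifen lay in 2 male cells, 107 and 44, and the cycling list, with 7 of 12 measured genes higher and 0 lower (median 1.33), had 75.2% of its tamoxifen UMIs in the same 2 cells. With the 2 highest cells of each library left out, the summed cycling list was at 215 CPM in tamoxifen and 212 in oil.

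Among genes named as lower in tamoxifen members, Vcam1, an adhesion receptor for lymphocytes (chromosome 3, 116109949 to 116129688), was at 206 CPM in tamoxifen members and 490 in oil members (-1.25, -1.55 to -0.96), in 30 and 40 cells. The difference lay in female members (15 UMIs in tamoxifen and 172 in oil, -3.61), since male members had 121 and 76 (0.18, -0.24 to 0.62). Gas6 was at 106 and 239 CPM (-1.18, -1.60 to -0.77), in 32 and 40 cells, and at -1.94 in female and -0.83 in male members. Cd4, which some macrophages express as well as T cells, had 15 UMIs in 11 tamoxifen members and 44 in 24 oil members (-1.77), and Cd3d, Cd3e and Cd3g are at 0 by the rule. Tagap (-1.73), Tanc2 (-1.42) and the kinase gene Abl2 (-1.71) were low in both libraries, with at most 88.9 CPM. Setd5 (-1.71) and the neighbouring Gt(ROSA)26Sor (-1.84) on chromosome 6 were also lower in the comparator, by -1.50 and -1.08. Tagap was at -0.79 in the comparator, Tanc2 at -0.70, Gas6 at -0.54, Cd4 at -0.04, Vcam1 at 0.26 and Abl2 at 0.41.

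Of 275 Lyz1 UMIs in oil members 245 lay in 1 female cell, against 15 UMIs in all tamoxifen members (-4.42, or -1.96 without the highest cells). That cell also held 31 of the 32 Mucl1 UMIs, against 0 in tamoxifen, and 89 of the 158 Pla2g2d UMIs. Lyz1 shares a stretch of 118 bases with Lyz2, which many macrophages express, so its counts are uncertain. Bmp2, a growth factor made by some tissue macrophages, had 26 UMIs in 6 tamoxifen members and 110 in 13 oil members (-2.30). Of its oil UMIs 62 lay in 1 cell, and without the highest cell of each library 14 UMIs in tamoxifen and 48 in oil remained. Fabp5, a fatty acid binding protein gene, had 226 and 407 UMIs (-1.07), with 49.4% of the oil UMIs in 1 cell.

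**Figure D5:**
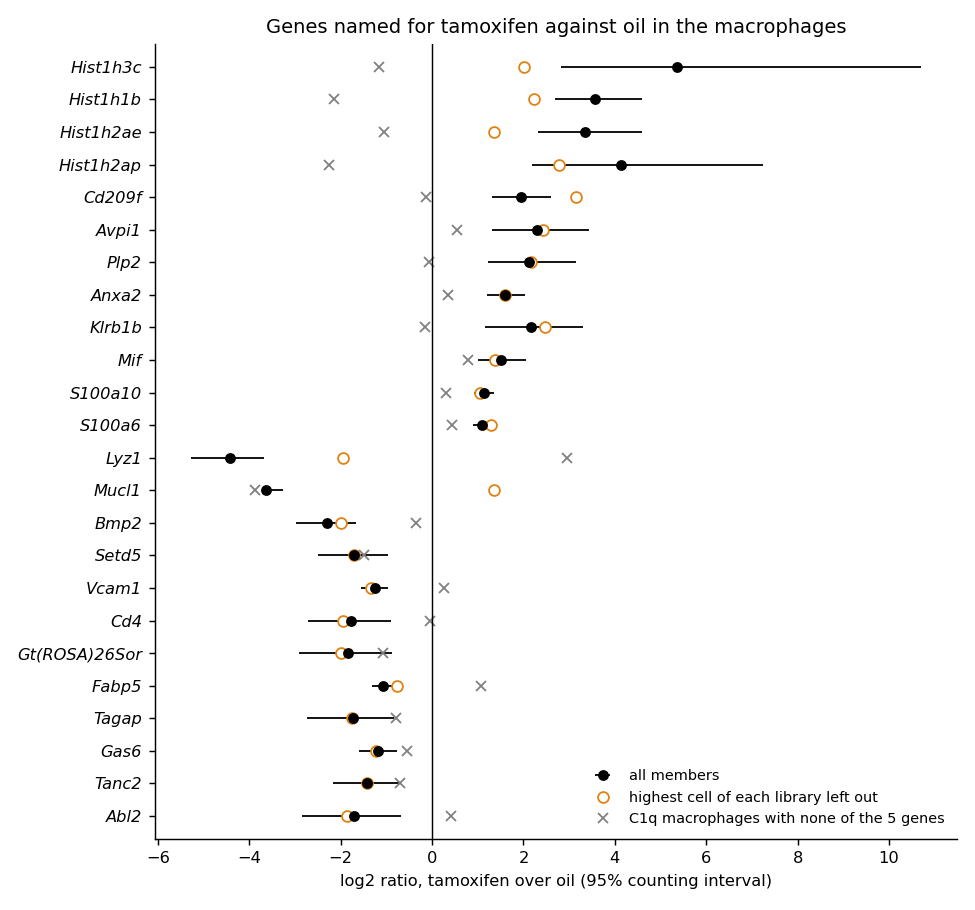
The log2 ratio of tamoxifen over oil in members (black, with 95% counting intervals) for the genes named in each direction, with the value after the highest cell of each library is left out (orange) and the value in C1q macrophages with none of the 5 genes (grey crosses). Anxa2 stands at 1.60 with and without the highest cells, and Lyz1 at -4.42 and -1.96; where 1 library had 0 UMIs, 3 UMIs stand in its place.

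H2-Eb1 was the class II gene that differed most between the libraries, at 5782 CPM in tamoxifen members and 3203 in oil members (0.85, 0.77 to 0.93), below 2-fold. In the comparator its ratio was 0.31 (0.28 to 0.33). In members H2-Aa (-0.37), H2-Ab1 (-0.23) and Cd74 (-0.22) ran slightly the other way. Of the 10 class II genes measured, 5 had ratios above 0, H2-Eb1 among them. The H2-Eb1 ratio was 1.02 (0.91 to 1.13) in male members and 0.11 (-0.03 to 0.25) in female ones.

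Over the remaining lists, tamoxifen against oil, MHC class II genes had 0 of 10 past 2-fold either way (median -0.04), macrophage core genes 0 of 20 (-0.13), scavenger receptors 0 of 18 (-0.19), iron and haem genes 0 of 14 (-0.09) and lysosomal genes 0 of 25 (-0.10). Type I interferon genes had 0 of 3 (-0.80). Chemokines had 3 of 21 higher and 1 lower (0.37), growth factors 2 of 19 higher and 3 lower (-0.22), complement 1 of 14 each way (0.10), and the interferon-gamma response 2 of 12 higher and 1 lower (0.49). Inflammatory cytokines had 1 of 17 higher and 0 lower (-0.16), alternative activation 2 of 11 higher and 0 lower (-0.04), immediate early genes 0 of 24 higher and 1 lower (0.01), lipid handling 0 of 17 higher and 1 lower (-0.04), eicosanoid enzymes 0 of 16 higher and 1 lower (-0.47), myeloid transcription factors 0 of 29 higher and 2 lower (-0.22), and the MHC class II-high list 3 of 24 higher and 1 lower (0.19). Of Hedgehog genes 0 were measured. Ccl17, at 349 CPM in tamoxifen members and 105 in oil members (1.73, 1.33 to 2.15), and Spp1, at 132 and 8.08 CPM (4.03, 2.76 to 5.68), were the chemokine and growth factor gene with the most UMIs among those past 2-fold higher, and 42.2% and 50.5% of their tamoxifen UMIs lay in 1 cell each.

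Summed markers of other cell types differed in level between types and, for some, between libraries. Blood endothelial markers summed to 249 CPM in tamoxifen members and 69.5 in oil members, with 113 of the 179 tamoxifen UMIs in 1 cell, and to 91.7 and 43.6 CPM without the highest cell of each library. Alveolar macrophage markers summed to 168 and 69.5 CPM, against 220 and 197 in the comparator. Of 16 such markers 3 were at 0 in tamoxifen members (Fabp1, Car4 and Cd200r4) and 7 in oil members (Krt79, Ear1, Marco, Siglecf, Krt19, Cidec and Serpinb1a). The markers of type 2 conventional dendritic cells summed to 1790 CPM in tamoxifen members and 1640 in oil members, against 2331 and 3000 in the comparator, with at least 1 UMI in 65 and 64 members. Of these 10 markers Cd209a alone was at 0, and Mgl2 (514 and 453 UMIs), Plbd1 (234 and 151) and Tnip3 (233 and 209) gave most of the sum. Monocyte markers summed to 635 and 669 CPM, against 1082 and 926, mostly Nr4a1 (225 and 201 UMIs) and Ccr2 (125 and 72), with Ly6c2 and Cd300e at 0 in both. Markers of type 1 conventional dendritic cells summed to 536 and 344 CPM, against 473 and 440, with Xcr1, Clec9a and Itgae at 0 in oil members and at 12, 10 and 17 UMIs in tamoxifen members. Lymphatic endothelial markers summed to 592 and 1020 CPM, against 127 and 117, in members mostly Lyve1, Stab1 and Fgl2. Migratory dendritic cell markers summed to 507 and 326 CPM, against 1266 and 1355 in the comparator, fibroblast markers to 278 and 268 CPM, and T cell markers, mostly Cd4, to 34.7 and 85.6 CPM. Their part in the ratios above was not tested.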

How the data were processed

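The authors deposited raw UMI counts per gene and barcode for 1 tamoxifen and 1 oil library (10x Genomics 3′ chemistry, 31053 genes), made with Cell Ranger 5.0.1 on GRCm38 (mm10) per the submitters' processing notes. The members and gene lists were chosen with earlier results of these data known. Counts were summed over the cells of a class, scaled to CPM and compared as log2 ratios with exact conditional Poisson intervals at 95%. A gene at 0 UMIs was set to 3 UMIs over the class. Gene ratios used genes with at least 20 UMIs over both sides, and 2-fold was the limit for counts. Named genes had at least 30 UMIs and 50 CPM on the higher side and were ranked by the interval bound nearest to 0, up to 12 each way between libraries and 15 each way between classes. Genes under 1/5 of their level in another cell class were left out as possible free RNA. Shares have Clopper-Pearson intervals, and ratios of shares Katz intervals. Scrublet calls (416 tamoxifen cells, and the 369 highest-scoring oil cells since its own threshold marked 4) were used as an alternative and doublets were otherwise kept; 2 tamoxifen and 0 oil members were among them. Other alternatives were the thinning, the scaling, the limits of the rule and each sex alone. Gene positions are from GENCODE M21 and promoter sequences from RefSeq. The ratio code was tested on simulated data. Python 3.11.15, numpy 2.4.6, scipy 1.17.1, pandas 2.3.3 and scanpy 1.11.5 were used. Some members of the gene lists are counted but not reported by name here.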

Additional observations from a re-analysis of the deposited data

Results flagged for a closer look

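The tamoxifen to oil ratio of Hist1h1b in members differed in sign between the sexes, at -1.31 in female cells (0 UMIs in tamoxifen and 7 in oil, with 3 UMIs in place of 0) and 5.75 in male cells (151 and 2 UMIs). The ratio of Fabp5 was -3.18 in female cells (44 and 374 UMIs) and 3.81 in male cells (177 and 9 UMIs). Neither difference was tested. The tamoxifen UMIs of Hist1h1b lay in 2 cells, and 201 of the 407 oil UMIs of Fabp5 in 1 cell.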

How the results depend on the processing

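No paired analysis was possible because each group has 1 library. Of the values recomputed under alternatives, 1042 stayed inside the counting interval of the reported value or, for counts of genes, near the reported count. Another 275 moved outside, and 14 changed direction. Changes of direction were recorded only for gene ratios, shares with intervals clear of 0 and list medians of at least 2-fold. The cause was not tested. The log2 ratio of members among C1q macrophages ranged from 0.03 to 0.24, and among kept cells from -0.62 to -0.22. The count of genes at least 2-fold higher in tamoxifen members was 79 with cells thinned to 3000 UMIs before the rule, 1056 with no minimum of 20 UMIs and 83 with at least 50 UMIs, and genes at least 2-fold lower in tamoxifen members 83, 784 and 57. Leaving out the highest cell of each library, chosen after seeing the data, gave 254 and 197. The count of genes at least 2-fold higher in members than in C1q macrophages lacking the 5 genes, in both libraries, was 527 with at least 3 of the 5 genes required, 101 in female cells, 890 with no minimum and 146 with at least 50 UMIs, and genes lower by the same rule 225 with at least 3 genes and 97 with at least 50 UMIs. The ratio of the share of members with a UMI was 0.88 for Folr2 and 1.21 for Ccl8 in male cells, and -0.89 for Stab1 and -1.16 for Cd209g in female cells. Between libraries, ratios reversed in female cells for Hist1h1b (-1.31), Cd209f (-0.57) and the cycling list (-1.37), in male cells for S100a6 (-0.064), Lyz1 (1.51), Vcam1 (0.18) and Fabp5 (3.81), with at least 3 genes for Lyz1 (0.99) and Fabp5 (2.50), and with thinning for Mif (-0.35). The counting intervals of Cd209f in female cells and of S100a6, Lyz1 and Vcam1 in male cells spanned 0. Male Lyz1 rested on 8 UMIs in tamoxifen and 2 in oil. Between classes in tamoxifen, ratios reversed in female cells for Ccl17 (0.069) and the cycling list (-0.29), and for the type I interferon list with thinning (0.077) and in male cells (0.31). In the splits of members by Lyve1 and Cxcl13, the values without the highest cell of each library were also chosen after seeing the data. Depth limits the class itself, since the comparator can hold cells whose rule transcripts were not captured.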
